A study of Mus musculus with 15 samples.

Results

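The IL-1 family was described here through 9 genes measured on one-colour microarrays of mouse embryonic fibroblasts (MEFs): the ligands *Il1a*, *Il1b*, *Il18* and *Il33*, the receptor antagonist *Il1rn*, the receptor chains *Il1r1*, *Il1rap* and *Il1rl1*, and the signalling inhibitor *Irak3*. A probe was counted when its RefSeq transcript belonged to 1 of these genes, whatever its signal, which gave 18 of the 56605 probes on the array. Of these, 9 probes of 5 genes were bright enough to be tested, among 29334 tested probes of 13528 genes. The MEFs were Balb/c/3T3 clone A31, an established line grown from 1 clone, so every group shared 1 genotype. Cells were left untreated (control) or received recombinant TNFα at 10 ng/ml, IL-1β at 1 ng/ml, IL-6 at 20 ng/ml together with its soluble receptor sIL-6Rα at 25 ng/ml, or TGFß1 at 5 ng/ml. The labels give 24 or 72 h of culture without saying which array had which time, and a legend of the study gives 24 h for the control, TNFα and TGFß1 arrays. Each of the 5 groups had 3 arrays. An array is named below by its condition and its label number.

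IL-1 family ligands act on a ligand-binding receptor chain that then recruits a shared accessory chain, encoded for several of these receptors by *Il1rap*. The joined chains engage MyD88 and IRAK kinases and activate NF-κB and MAP kinases. IL-1α and IL-1β bind IL-1R1, which the IL-1 receptor antagonist blocks, IL-33 binds ST2 (the product of *Il1rl1*, made as a membrane receptor and as a soluble decoy), and IL-18 has its own receptor pair. IRAK-M, the product of *Irak3*, restrains signalling from IRAK kinases. Fibroblasts are known as responders to IL-1 and as a source of soluble ST2.

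On the brightest probe of each gene, *Il1rl1* was the 1 member of the 5 tested that was called with TNFα, and it was higher. With TGFß1, *Il1r1*, *Il1rap*, *Irak3* and *Il18* were called, all lower than in control MEFs, while 2 further probes of *Il1rl1* were called higher. With IL-1β and with IL-6 plus sIL-6Rα, 0 of the 5 were called. A call meant a q below 0.05, where q is the p of limma's moderated test adjusted by Benjamini-Hochberg over all tested probes, together with a fold of at least 1.5. The background over all tested probes was 10.0% called with TNFα (4.09% up and 5.96% down), 17.9% with TGFß1 (7.51% higher and 10.4% lower), 0.232% with IL-1β (0.228% higher and 0.00341% lower) and 0.0580% with IL-6 plus sIL-6Rα, all higher. The 0 calls with IL-1β and with IL-6 plus sIL-6Rα were also 0 members at an unadjusted limma p below 0.05. The brightest probe of each of the 5 members was well above background on all 3 control arrays. All 4 comparisons used the same 3 control arrays. The median difference over the 5 members was 0.15 with TNFα, 0.22 with IL-1β, 0.36 with IL-6 plus sIL-6Rα and -1.09 with TGFß1 on the log2 scale, beside 0.04, -0.00010, 0.00023 and 0.07 over all tested probes.

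**Figure D1:**
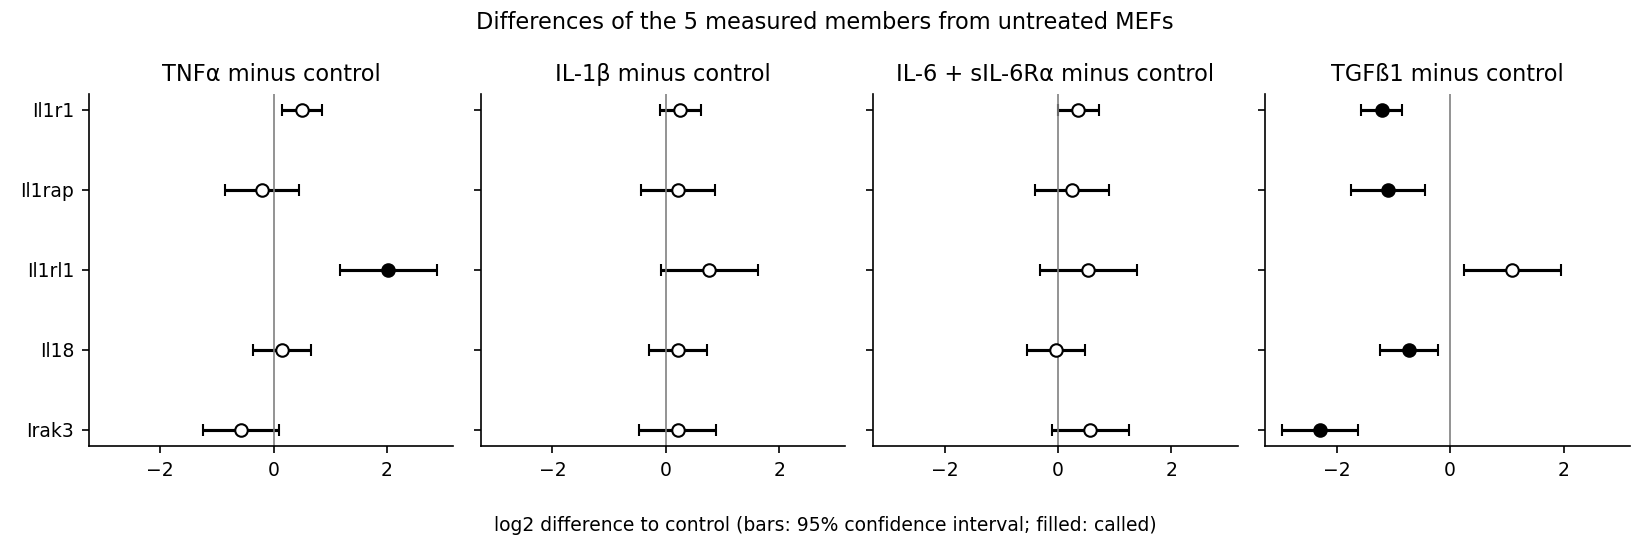
Difference of each of the 5 tested members from control MEFs (x axis, log2 scale) with each cytokine, for the brightest probe of each gene. Points are differences of means of 3 arrays, bars are 95% confidence intervals from limma and filled points are calls. *Il1rl1* stands to the right with TNFα at 2.02, and the other 4 genes stand to the left with TGFß1, from -0.73 for *Il18* to -2.30 for *Irak3*.

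Treatments with TNFα, IL-1β and IL-6 plus sIL-6Rα were visible in genes outside the family. *Cxcl5*, a neutrophil chemokine, rose by 3.03 with TNFα and 5.12 with IL-1β (log2, q = 1.94e-06 and 1.02e-07), and *Socs3*, a feedback gene of IL-6 signalling, by 2.39 with IL-6 plus sIL-6Rα (q = 0.00157). All 7 fibroblast markers were well above background on all 15 arrays, while *Ptprc*, *Adgre1*, *Tyrobp* and *Laptm5* of the 7 leukocyte markers, *Kit* and *Cma1* of the 4 mast cell markers, and *Cdh5*, *Kdr* and *Tek* of the 4 endothelial markers were so on 0 arrays. The endothelial marker *Pecam1* was detected on all 15 arrays. The mast cell markers *Cpa3* and *Mcpt4* were each flagged on 1 array, *Cpa3* on TNFα array 14 (-1.53). The mast cell list summed to 0.0340 to 0.0495 in control and 0.0443 to 0.386 with TNFα, and its part in the TNFα results was not tested. The remaining leukocyte markers *Csf1r*, *Fcer1g* and *Itgam* were detected on all 15 arrays, with a summed level of the list of 9.67 to 21.5 in control, 11.3 to 22.3 with TNFα and 11.6 to 20.6 with TGFß1, as multiples of the array's 75th percentile. Of the 4 epithelial markers, *Krt18* was detected on 10 of 15 arrays, *Krt8* on 4, *Epcam* on 1 and *Cdh1* on 0. The epithelial list summed to 0.0623 to 0.191 in control and 0.221 to 0.590 with TGFß1, and its part in the TGFß1 results was not tested. The arrays came from 2 slides, and each run of 5 label numbers (1 to 5, 6 to 10, 11 to 15) held 1 array of every condition. Slide was not balanced over conditions. Slide 1 held control arrays 1 and 11, IL-1β arrays 5 and 10, and IL-6 plus sIL-6Rα arrays 3 and 8. It also held TNFα array 14 and TGFß1 array 7, and all other arrays were on slide 2. Most TNFα and TGFß1 arrays were thus on the other slide than most controls. The labels do not say what these numbers stand for, and a legend of the study names biological replicates from independent experiments. In bulk RNA, fewer cells of a type and less RNA per cell cannot be told apart.

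Transcripts of the classical IL-1 ligands, their antagonist and IL-33 were not well above background in any condition. *Il1a* (1 probe, NM_010554), *Il1b* (2 probes, NM_008361), *Il1rn* (2 probes, NM_001039701) and *Il33* (2 probes, NM_001164724) gave 105 spot values over the 15 arrays, of which 0 were well above background. Their signals lay between 2.58 and 17.0 units, where the 75th percentile of an array was 325 to 445 units. On the log2 scale relative to that percentile, *Il1a* ranged from -7.42 to -6.65, and the brighter *Il33* probe ranged from -6.98 to -4.49. These genes were therefore not tested, and the arrays set only an upper bound on their levels. Of the 5 other ligands of the family, all with a probe, 0 were tested. *Il1f10*, *Il36a*, *Il36b* and *Il36rn* were not well above background on any array, whereas *Il36g* was so on TNFα array 14 (-0.53) and on IL-1β array 10, where its spot was left out as an outlier.

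*Il18*, which encodes a cytokine that is made as an inactive precursor, was the 1 ligand of the list that was measured (probe A_55_P2732528, NM_008360, chromosome 9). Its level, the log2 signal minus the array's 75th percentile as for every level given here, was -1.67, -1.14 and -1.09 on control arrays 1, 6 and 11. It was -2.32, -1.65 and -2.12 on TGFß1 arrays 2, 7 and 12. The TGFß1 array 7 and control array 1 overlapped narrowly, and the other TGFß1 arrays were lower than every control. The difference was -0.73 ± 0.24 (log2, SE, n = 3 per group, q = 0.0404), a level 1.66-fold lower. Within each run of label numbers the TGFß1 array was lower than its control, with differences of -0.65, -0.51 and -1.03. The call ended when control array 6 (-0.65, q = 0.114), control array 11 (-0.62, q = 0.125), TGFß1 array 2 (-0.59, q = 0.153) or TGFß1 array 12 (-0.68, q = 0.113) was left out. On slide 1 alone the difference was -0.27 (q = 0.726) and on slide 2 alone -1.08 (q = 0.0571). With TNFα (0.15, 95% confidence interval -0.36 to 0.66), IL-1β (0.22, -0.30 to 0.73) and IL-6 plus sIL-6Rα (-0.03, -0.55 to 0.48), *Il18* was not called.

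*Il1r1*, the signalling receptor for IL-1α and IL-1β, fell with TGFß1. Its probe (A_51_P271503, NM_008362, chromosome 1) read 2.75, 2.75 and 2.67 on control arrays 1, 6 and 11, and 1.22, 1.57 and 1.77 on TGFß1 arrays 2, 7 and 12. The groups lay far apart compared with their spread, with an SD of 0.046 in control and 0.28 with TGFß1. The difference was -1.21 ± 0.17 (log2, SE, n = 3 per group, q = 0.000305), which is 2.31-fold lower. It was -1.14 on slide 1 alone and -1.26 on slide 2 alone, where q was 0.0823 and 0.0602 with fewer arrays. The level was 3.00, 3.31 and 3.36 on TNFα arrays 4, 9 and 14, 2.93, 3.13 and 2.89 on IL-1β arrays 5, 10 and 15, and 2.84, 3.35 and 3.07 on IL-6 plus sIL-6Rα arrays 3, 8 and 13. Every array of these 3 groups was above all control arrays, but none of the 3 differences was called: 0.50 with TNFα (95% confidence interval 0.14 to 0.86, q = 0.0703), 0.26 with IL-1β (-0.10 to 0.62) and 0.36 with IL-6 plus sIL-6Rα (-0.0012 to 0.72). Groups did not overlap for 28.9%, 5.33% and 5.05% of all tested probes in these comparisons, and for 38.8% with TGFß1.

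*Il1rap*, the accessory chain shared by the receptors for IL-1, IL-33 and IL-36, also fell with TGFß1 on its brightest probe. That probe (A_55_P2807476, NM_008364, chromosome 16) read 1.98, 2.79 and 2.12 on control arrays 1, 6 and 11. It read 1.07, 1.36 and 1.20 on TGFß1 arrays 2, 7 and 12, all below every control. The difference was -1.09 ± 0.30 (log2, SE, n = 3 per group, q = 0.0200), which is 2.13-fold lower. The second tested probe (A_52_P467232, NM_134103) gave -0.64 ± 0.35 (q = 0.212), with overlapping groups, and the mean of both probes gave -0.87 (q = 0.0697). The third probe (A_52_P207374, NM_001159318) was well above background on 4 of 15 arrays, none of them treated with TGFß1 or TNFα, and was not tested. Arrays 6 to 10 were the highest within each of the 5 conditions on the brightest probe, at 2.79 in control, 2.60 with TNFα, 2.97 with IL-1β, 3.07 with IL-6 plus sIL-6Rα and 1.36 with TGFß1. Relative to the control of the same run, TGFß1 lay at -0.92, -1.43 and -0.92. The call ended without control array 6 (-0.84, q = 0.0809), TGFß1 array 2 (-1.02, q = 0.0705) or TGFß1 array 12 (-1.08, q = 0.0551), and on slides 1 and 2 alone the difference was -0.69 (q = 0.392) and -1.66 (q = 0.0571). None of the other 3 cytokines gave a call, with differences of -0.20 (95% confidence interval -0.85 to 0.46) with TNFα, 0.21 (-0.44 to 0.86) with IL-1β and 0.24 (-0.41 to 0.90) with IL-6 plus sIL-6Rα.

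*Il1rl1*, which encodes the IL-33 receptor ST2, was the member that rose with TNFα. On its brightest probe (A_51_P339793, NM_010743, chromosome 1) the level was 7.19, 5.60 and 7.15 on control arrays 1, 6 and 11. It was 8.69, 8.54 and 8.77 on TNFα arrays 4, 9 and 14. All TNFα arrays were above all controls, and control array 6 stood well below the other controls. The difference was 2.02 ± 0.39 (log2, SE, n = 3 per group, q = 0.00513), a level 4.07-fold higher. The other 2 probes, both for NM_001025602, gave 1.83 ± 0.22 (A_55_P2027731, q = 0.000202) and 1.47 ± 0.24 (A_55_P2027737, q = 0.00177), so 3 of 3 probes were called. Control array 6 was the lowest of the 15 arrays on each of the 3 probes. Without it the TNFα difference was 1.5, 1.51 and 1.13 on the 3 probes (q = 0.00943, 0.000121 and 0.00135). Within the runs of label numbers the brightest probe rose by 1.5, 2.94 and 1.63. On slide 1 alone, with 1 TNFα array, the difference was 1.60 (q = 0.180), and on slide 2 alone, with control array 6 as the 1 control, it was 3.02 (q = 0.0182).

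With TGFß1, *Il1rl1* read 7.84, 7.34 and 8.06 on arrays 2, 7 and 12, again above every control. The difference on the brightest probe was 1.10 ± 0.39 (log2, SE, n = 3 per group) and missed the threshold (q = 0.0605), while both NM_001025602 probes were called, at 1.18 ± 0.22 (q = 0.00257) and 0.99 ± 0.24 (q = 0.0107). With runs of label numbers and slide in the model, the brightest probe was called as well (1.14, q = 0.00258). Without control array 6 the values on the 3 probes were 0.57 (q = 0.20), 0.86 (q = 0.00262) and 0.65 (q = 0.0182). On slide 1 alone the brightest probe differed by 0.17 (q = 0.843) and on slide 2 alone by 2.35 (q = 0.0200). IL-1β gave 7.72, 6.83 and 7.69 on arrays 5, 10 and 15, and IL-6 plus sIL-6Rα gave 7.27, 6.75 and 7.52 on arrays 3, 8 and 13. Both sets overlapped the controls, with differences of 0.77 (95% confidence interval -0.08 to 1.62) and 0.53 (-0.32 to 1.39). The order of the means was TNFα, TGFß1, IL-1β, IL-6 plus sIL-6Rα and control on this probe; of the neighbours in that order, 0 pairs differed by a call. Across the 15 arrays the 3 probes correlated with each other at r = 0.917 to 0.971, a description over arrays that share runs and slides.

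**Figure D2:**
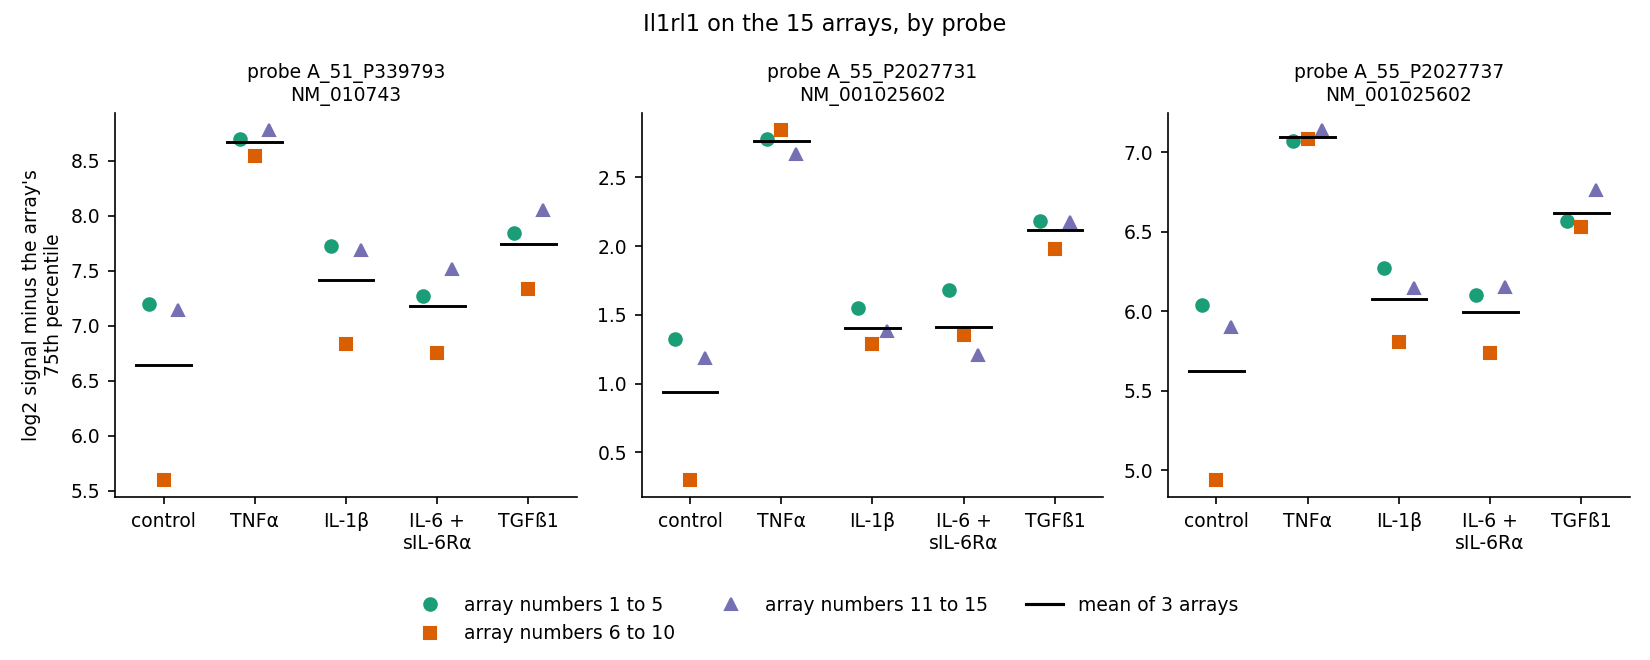
*Il1rl1* on the 15 arrays for its 3 probes, each panel on its own scale (y axis, log2 signal minus the 75th percentile of the array; x axis, condition). Points are single arrays, marked by the run of label numbers, and lines are means of 3 arrays. TNFα arrays are the highest on every probe, and control array 6 is the lowest, at 5.60 on the probe at left.

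RefSeq starts *Il1rl1* at a distal and a proximal promoter, of which the proximal one is known for fibroblasts and the distal one for haematopoietic cells. The 250 bases before each start are given 5′ to 3′ on the gene strand (build GRCm38.p6, plus strand for both), because this gene carried the TNFα result. Capitals mark matches to 5 motifs searched on both strands: κB (GGG, any 5 bases, then CC), AP-1 (TGANTCA), C/EBP (TTGCNNAA), STAT (TTCNNNGAA) and SMAD (GTCTAGAC).
Il1rl1 proximal, chr1:40439379-40439628: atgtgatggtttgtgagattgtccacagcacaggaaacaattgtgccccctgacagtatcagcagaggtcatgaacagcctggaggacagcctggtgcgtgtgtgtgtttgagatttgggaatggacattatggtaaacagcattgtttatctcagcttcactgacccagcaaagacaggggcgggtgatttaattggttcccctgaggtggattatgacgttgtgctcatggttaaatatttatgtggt
Il1rl1 distal, chr1:40429320-40429569: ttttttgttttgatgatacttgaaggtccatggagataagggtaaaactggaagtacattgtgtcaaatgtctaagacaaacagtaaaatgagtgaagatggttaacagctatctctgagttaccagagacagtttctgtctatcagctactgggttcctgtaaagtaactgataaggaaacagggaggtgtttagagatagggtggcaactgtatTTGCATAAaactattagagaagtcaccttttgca
The proximal window held 0 matches and the distal window held 1, a C/EBP match from 34 to 27 bases before the start. Of all 32841 mouse promoter windows of this length, 45.8% held the κB letters, 6.75% AP-1, 9.57% C/EBP, 7.02% STAT and 0.167% SMAD. A match is a match of letters only.

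*Irak3*, whose product IRAK-M restrains IL-1 and Toll-like receptor signalling, fell with TGFß1. Its brightest probe (A_52_P386627, NM_028679, chromosome 10) read -1.68, -1.59 and -2.03 on control arrays 1, 6 and 11. It read -4.12, -3.67 and -4.40 on TGFß1 arrays 2, 7 and 12, the last not well above background. No TGFß1 array came near a control array, and the difference was -2.30 ± 0.31 (log2, SE, n = 3 per group, q = 0.000275), which is 4.91-fold lower. Within the runs it was -2.44, -2.08 and -2.37. On slide 1 alone it was -1.82 (q = 0.0776) and on slide 2 alone -2.67 (q = 0.0201). With normexp background correction the difference was -0.90, still a call but smaller than the -1.14 of *Il1r1* there. A second tested probe for the same transcript (A_51_P166941) was well above background on 2 of the 3 control arrays and on no TGFß1 array. It entered the test through its IL-1β and IL-6 plus sIL-6Rα arrays. This probe was at least 1.59-fold lower with TGFß1. The limma q of 0.000434 belongs to its fitted difference of -2.45, which uses TGFß1 values below background. The third probe (A_66_P112092), detected on 6 of 15 arrays, was not tested.

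*Irak3* was not called with the other cytokines. The level was -2.54, -2.29 and -2.19 on TNFα arrays 4, 9 and 14, each below all controls, but the difference of -0.57 (95% confidence interval -1.25 to 0.10, q = 0.275) was not called. With IL-1β it was -1.67, -0.90 and -2.10 on arrays 5, 10 and 15, which overlapped the controls (0.21, -0.47 to 0.88). With IL-6 plus sIL-6Rα it was -1.17, -0.70 and -1.71 on arrays 3, 8 and 13, also overlapping (0.57, -0.10 to 1.24).

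**Figure D3:**
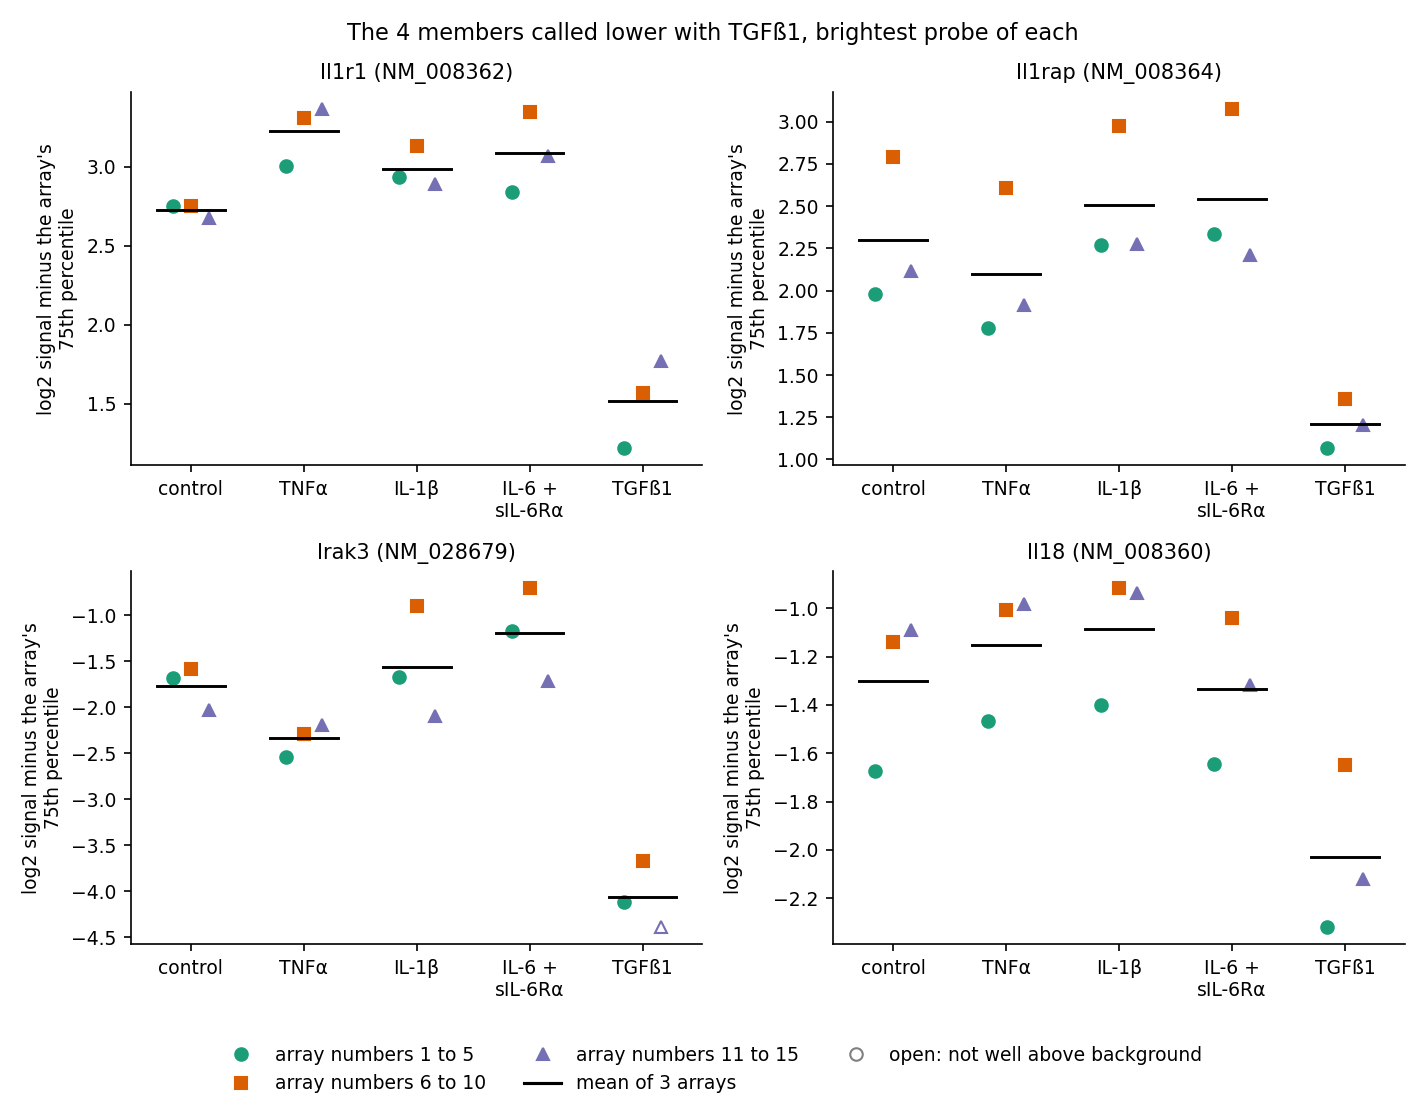
*Il1r1*, *Il1rap*, *Irak3* and *Il18* on the 15 arrays, brightest probe of each (y axis, log2 signal minus the 75th percentile of the array, each panel on its own scale; x axis, condition). Points are single arrays marked by the run of label numbers, open where the spot was not well above background, and lines are means of 3 arrays. TGFß1 arrays are the lowest group in each panel, and for *Il18* TGFß1 array 7, at -1.65, reaches control array 1, at -1.67.

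The promoter windows of 3 of the 4 members lower with TGFß1 held a match and are shown for that reason (250 bases before the start, 5′ to 3′ on the gene strand, GRCm38.p6; plus strand for *Il1r1* and *Il1rap*, minus strand for *Irak3*; capitals mark matches as above).
Il1r1 first start, chr1:40224830-40225079: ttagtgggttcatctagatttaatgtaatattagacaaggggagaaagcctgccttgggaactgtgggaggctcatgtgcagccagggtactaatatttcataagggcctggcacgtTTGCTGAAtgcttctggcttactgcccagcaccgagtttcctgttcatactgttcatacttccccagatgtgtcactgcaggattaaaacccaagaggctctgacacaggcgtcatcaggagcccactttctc
Il1r1 second start, chr1:40266336-40266585: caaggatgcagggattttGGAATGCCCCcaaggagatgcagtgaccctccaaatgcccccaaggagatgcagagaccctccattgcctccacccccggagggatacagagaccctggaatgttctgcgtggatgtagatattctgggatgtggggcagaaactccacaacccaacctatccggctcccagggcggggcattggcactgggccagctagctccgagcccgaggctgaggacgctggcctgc
Il1rap, chr16:26581455-26581704: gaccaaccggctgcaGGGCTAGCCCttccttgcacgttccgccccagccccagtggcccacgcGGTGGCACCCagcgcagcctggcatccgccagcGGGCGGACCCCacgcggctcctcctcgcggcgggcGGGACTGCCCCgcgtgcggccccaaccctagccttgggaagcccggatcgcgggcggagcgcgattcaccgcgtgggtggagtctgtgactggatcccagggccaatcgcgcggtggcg
Irak3, chr10:120201598-120201847: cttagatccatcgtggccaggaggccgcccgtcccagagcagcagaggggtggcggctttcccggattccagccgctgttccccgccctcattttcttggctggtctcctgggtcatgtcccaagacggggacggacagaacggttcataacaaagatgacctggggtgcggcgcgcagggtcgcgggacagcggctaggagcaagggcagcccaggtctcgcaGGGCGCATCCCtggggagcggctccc
*Il1rap* held 6 κB matches, some of them overlapping, in a window that was 74.4% G or C, *Irak3* held 2 overlapping ones within 26 bases of the start, and the *Il1r1* windows held 1 C/EBP match and 1 κB match. The *Il18* window and the second *Irak3* window held 0. Over the 8 windows of the 5 measured members, 3 held κB letters, 2 C/EBP, and 0 AP-1, STAT or SMAD. Over all mouse windows the shares were 45.8% for κB and 9.57% for C/EBP. The share of windows with a match to any of the 5 motifs was not computed.

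The cytokines were also set against each other. Every comparison with TGFß1 used the same 3 TGFß1 arrays as the comparison with control. Its results are therefore not independent of the differences from control given above. IL-1β and TGFß1 differed in 4 of the 5 members, all higher with IL-1β (16.9% of all tested probes were called, 10.2% higher): *Irak3* by 2.50 ± 0.31 (q = 0.000157), *Il1r1* by 1.46 ± 0.17 (q = 7.84e-05), *Il1rap* by 1.30 ± 0.30 (q = 0.00879) and *Il18* by 0.95 ± 0.24 (q = 0.0129), as log2 differences with SE. IL-6 plus sIL-6Rα and TGFß1 differed in 3 (16.3% of probes called, 9.69% higher), among them *Irak3* at 2.87 ± 0.31 (q = 5.65e-05), and *Il18* missed the threshold (0.70 ± 0.24, q = 0.0532) but was called with runs and slide in the model (0.66, q = 0.000305). TNFα and TGFß1 differed in 3 (11.8% of probes called, 6.61% higher): *Il1r1* (1.70 ± 0.17, q = 1.85e-05), *Irak3* (1.72 ± 0.31, q = 0.00214) and *Il18* (0.88 ± 0.24, q = 0.0237), all higher with TNFα. *Il1rap* missed the threshold there (0.89 ± 0.30, q = 0.0676) and was called with runs and slide in the model (0.89, q = 0.000369). When each of the 6 arrays compared was left out in turn, the *Il18* call between TNFα and TGFß1 held in 2 of 6 fits. Between IL-1β and TGFß1 the *Il18* call held in 4 of 6. The *Il1r1* and *Irak3* calls against TGFß1 held in 6 of 6 for each cytokine, as did those of *Il1rap* with IL-1β and IL-6 plus sIL-6Rα. With normexp the differences of *Irak3* from TGFß1 were 1.07 with IL-1β, 1.35 with IL-6 plus sIL-6Rα and 0.62 with TNFα, the last no longer a call (q = 0.0599). For *Il1rl1*, which rose with TNFα and moved the same way with TGFß1, the difference between those 2 cytokines was 0.93 ± 0.39 (95% confidence interval 0.07 to 1.78, q = 0.148), and it was called with runs and slide in the model (0.93, q = 0.00961).

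TNFα and IL-6 plus sIL-6Rα differed in 2 members (8.59% of probes called): with TNFα, *Il1rl1* was higher by 1.49 ± 0.39 (q = 0.0292) and *Irak3* was lower, at -1.14 ± 0.31 (q = 0.0340). Each of these calls ended when any of 5 of the 6 arrays compared was left out in turn, all but IL-6 plus sIL-6Rα array 13. IL-1β and TNFα differed in 0 members on the brightest probes (4.69% of probes called), with 2 at an unadjusted limma p below 0.05. *Il1rl1* was lower with IL-1β there by -1.25 ± 0.39 (q = 0.0898), and its other 2 probes were called, at -1.36 ± 0.22 (q = 0.00373) and -1.02 ± 0.24 (q = 0.0281). With runs and slide in the model the brightest *Il1rl1* probe (-1.30, q = 0.00316) and *Irak3* (0.66, q = 0.00596) were called there too. IL-1β and IL-6 plus sIL-6Rα differed in 0 members (0.399% of probes called), also at an unadjusted limma p below 0.05, with differences from -0.36 for *Irak3* to 0.25 for *Il18*.

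Across the 15 arrays *Irak3* and *Il1rap* had the highest correlation among the members (r = 0.907), followed by *Il1r1* with *Irak3* and with *Il18* (both r = 0.830), while *Il1rl1* was at -0.488 with *Il1rap* and 0.025 with *Il1r1*. These are descriptions over arrays that share conditions, runs and slides. Among 13486 genes searched, those with the pattern most like *Il18* were *Casp1*, which encodes the protease that cleaves pro-IL-18, *Acaa1a* and *Npdc1* (r = 0.960, 0.959 and 0.959). For *Il1r1* they were *Lpxn*, *Casp4* and *Uaca* (0.972, 0.967 and 0.962), and for *Il1rap* *Serpine2*, *4933400A11Rik* and *Cyp4v3* (0.971, 0.963 and 0.963). For *Il1rl1* they were *Glul*, *Wdr36* and *Oxnad1* (0.958, 0.954 and 0.95), and for *Irak3* *Stom*, *Nrg1* and *Traf3ip2* (0.971, 0.969 and 0.968).

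The rest of the pathway was followed through 39 further genes, all with a probe and 31 tested. On the brightest probe of each gene, TNFα gave 8 calls, 7 of them higher, which is 25.8% of the 31 beside 10.0% of all tested probes. The 7 include *Il1r2*, whose probe entered the test through its TNFα and IL-1β arrays. IL-1β gave 3 calls and IL-6 plus sIL-6Rα gave 1, all higher, or 9.68% and 3.23% beside 0.232% and 0.0580%. TGFß1 gave 8 calls, 6 of them lower, or 25.8% beside 17.9%. The median log2 difference of the 31 was 0.18, 0.02, 0.03 and 0.04 with TNFα, IL-1β, IL-6 plus sIL-6Rα and TGFß1, beside 0.04, -0.00010, 0.00023 and 0.07 over all tested probes.

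Among 8 other receptors and decoys, 6 were tested, and 3 were called higher with TNFα, beside 4.09% of all tested probes. These 3 include *Il1r2*, whose call carries the limit given below. *Il1r2*, the decoy receptor that binds IL-1 without signalling, read -0.72, -0.03 and -0.94 on TNFα arrays 4, 9 and 14. On control arrays 1, 6 and 11 it read -6.19, -4.81 and -4.94, of which array 6 alone was well above background, so that the probe entered the test through its TNFα and IL-1β arrays. The fitted difference of 4.75 ± 0.56 (log2, SE, n = 3 per group) is given as a description, since the probe was tested because it was high there. A second probe (A_52_P417890), well above background on the 3 TNFα arrays and on no other, was at least 3.73-fold higher with TNFα than in control. This probe entered the test through its TNFα arrays alone, so its bound is a description as well. With IL-1β all 3 arrays of *Il1r2* were detected and above all controls, at -3.78, -2.88 and -2.28, but the difference of 2.33 ± 0.56 was not called (q = 0.217). *Il18r1*, the IL-18-binding chain, rose by 1.51 (q = 0.000284) and *Il18bp*, a secreted IL-18 inhibitor, by 0.65 (q = 0.0190) with TNFα, where its second probe missed the threshold (0.74, q = 0.0610). *Il1rl2*, the IL-36 receptor, was at least 1.37-fold lower with TGFß1 (q = 0.0472 for the fitted difference, not for this bound). *Il18rap* and *Sigirr* were not called with any cytokine, and *Il1rapl1* and *Il1rapl2* were not tested.

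Of 16 signalling genes next to the receptor, all tested, 1 was called with TNFα and 2 with TGFß1, where 10.0% and 17.9% of all tested probes were called. *Peli2*, a ubiquitin ligase that acts on IRAK proteins, fell by 1.78 with TNFα (q = 0.000968) and by 1.33 with TGFß1 (q = 0.00371), and *Irak2*, a kinase-like relay of the receptor complex, rose by 0.66 with TGFß1 (q = 0.0148). *Myd88*, the adaptor of these receptors, differed by 0.52 with TNFα (q = 0.0185), short of the 1.5-fold limit.

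Of 6 genes that process or release the ligands, 5 were tested, and 2 rose with TNFα and 2 fell with TGFß1. Over all tested probes, 4.09% were called higher with TNFα and 10.4% lower with TGFß1. *Casp4*, an inflammatory caspase, read 3.02, 3.34 and 3.31 on control arrays 1, 6 and 11, rose by 1.49 with TNFα (q = 0.00111) and fell by 1.90 with TGFß1 (q = 0.000128). *Gsdmd*, which forms the pore through which IL-1β leaves cells, rose by 2.41 with TNFα (q = 0.000137), and with TGFß1 its difference was -0.80 (q = 0.0547), while its second probe was called (-0.82, q = 0.0295). *Casp1* fell by 1.67 with TGFß1 (q = 0.0109), and its difference with TNFα was not called. *Pycard* was not called with any cytokine and *Nlrp3* was not tested. *Nek7* was not called on its brightest probe, and its second probe was called higher with TGFß1 (0.73, q = 0.0107).

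The 3 calls with IL-1β were all among the 4 feedback genes, beside 0.228% of all tested probes called higher. *Tnfaip3*, which encodes the NF-κB inhibitor A20, rose by 1.34 with IL-1β (q = 0.000378) and by 3.84 with TNFα (q = 8.57e-09), and fell by 0.69 with TGFß1 (q = 0.00157). *Nfkbia*, which encodes IκBα, rose by 1.11 with IL-1β (q = 0.0166) and 2.42 with TNFα (q = 3.05e-06), and fell by 0.72 with TGFß1 (q = 0.00932). *Nfkbiz* rose by 1.49 with IL-1β (q = 0.000814) and by 1.35 with IL-6 plus sIL-6Rα (q = 0.00475), but its second probe missed the threshold with both (1.14, q = 0.163, and 1.44, q = 0.106). With only the groups compared in the fit, 0 of all tested probes were called with IL-6 plus sIL-6Rα. *Zc3h12a*, which encodes an RNase that degrades cytokine transcripts, rose by 2.23 with TGFß1 (q = 0.0190), and with IL-1β its difference was 2.88 (q = 0.118).

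**Figure D4:**
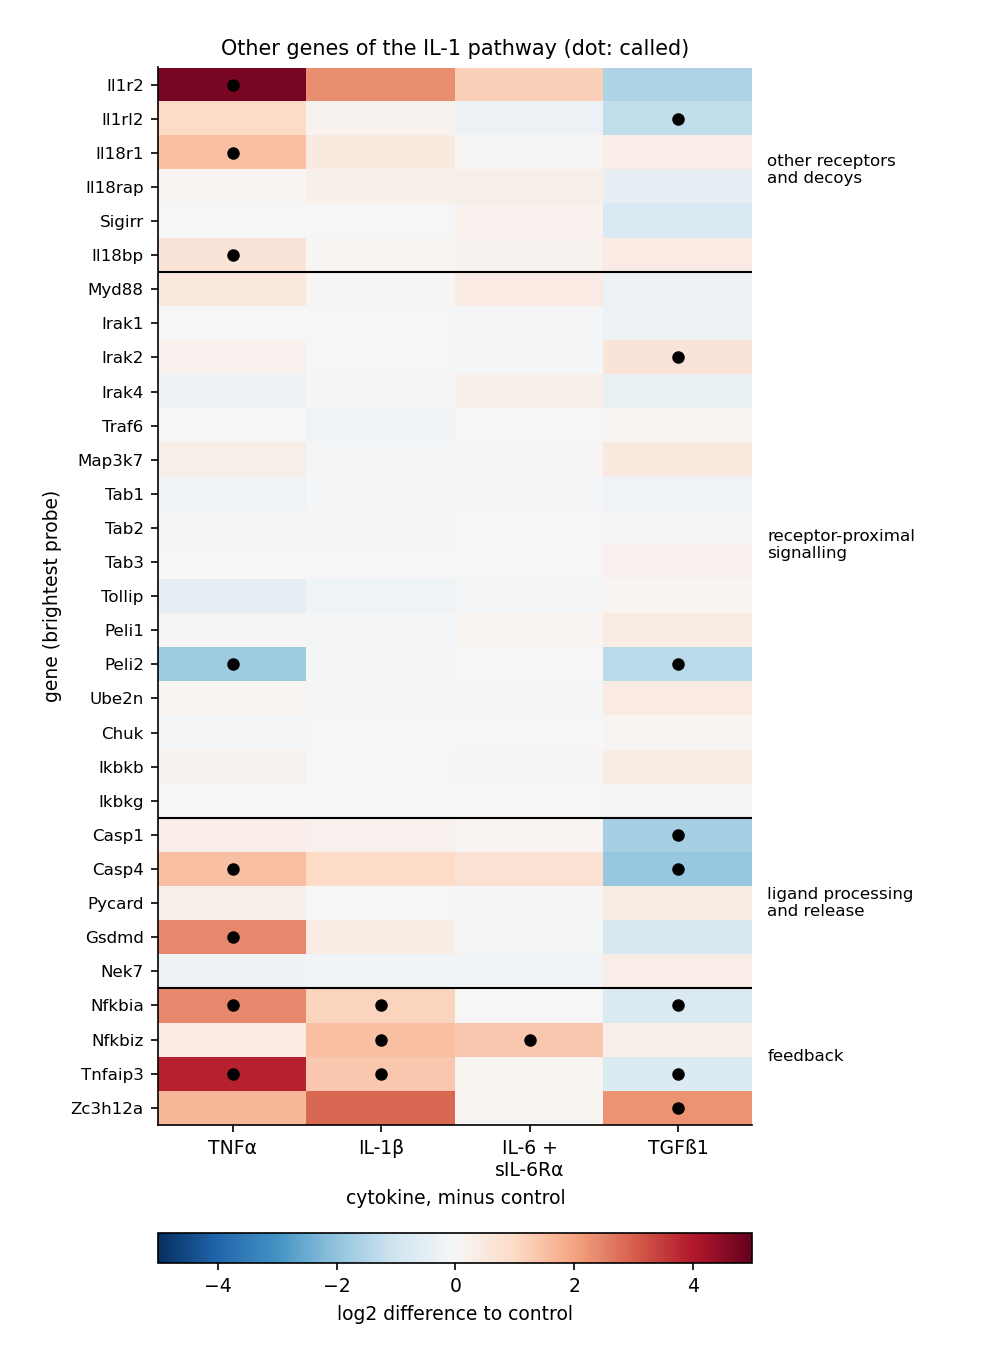
Log2 difference from control (colour scale) of the 31 tested pathway genes outside the 9 members (y axis, grouped by role), with each cytokine (x axis), for the brightest probe of each gene. Dots mark calls: TNFα has 8, IL-1β 3, IL-6 plus sIL-6Rα 1 and TGFß1 8. The TNFα dot of *Il1r2* is a description, since its probe entered the test through its TNFα and IL-1β arrays.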

How the data were processed

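Total RNA of 15 cultures was hybridised to one-colour Agilent 60-mer arrays. The deposited intensity values are scanner signals that the authors extracted with Agilent Feature Extraction 10.7.3.1, per the file headers background-subtracted and spatially detrended within each array, with no normalization between arrays. The deposited series table holds the same values. Here, control spots and outlier flags were left out, spots of a probe were averaged, and the level is log2 of the processed signal minus the 75th percentile of the array. Probes were named through RefSeq transcripts (GRCm38.p6). A probe was tested when it was flagged as well above background, on at least 0.5 of its spots, on all arrays of 1 group or more. All 15 arrays entered 1 limma fit (limma 3.58.1, R 4.3.3) with no covariate, and p was two-sided with Benjamini-Hochberg adjustment over all tested probes. The brightest probe over the 15 arrays represents a gene. Where all arrays of a group were below background, only a bound is given. Slide and runs of label numbers were alternatives. The normexp alternative was run on the median signal, where the mean had been planned, with an offset of 50. Precision rests on 3 arrays a group and has no read depth; p-values measure the spread between these arrays. On simulated data for the TNFα comparison (29256 probes, 200 changed), 3 of 50 changes of 1.5-fold, 25 of 50 of 2-fold and 44 of 50 of 4-fold were called. The simulated noise was independent between arrays, whereas arrays of the same run deviated together in the data. The members and gene lists were chosen with earlier results of these data known.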

Additional observations from a re-analysis of the deposited data

How the results depend on the processing

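The members called numbered 1 with TNFα, 0 with IL-1β, 0 with IL-6 plus sIL-6Rα and 4 with TGFß1. Each count stayed within 1.5 times its value in all 52 recomputations that kept every array of both groups (background correction, scaling, filters, slide and run terms). With TGFß1 the members behind the count varied: of 13 settings, *Il1r1* was called in 13, *Il1rap* in 12, *Il18* in 10 and *Il1rl1* in 4. *Irak3* was called in all 12 settings that tested it. It was not tested where probes had to be above background on all arrays. Within single slides, 0 of the 4 members lower with TGFß1 passed on slide 1 and *Irak3* alone did on slide 2 (q = 0.0201). Leaving out single arrays changed the TGFß1 count, which ran from 2 to 5: it was 2 without control array 6, TGFß1 array 2 or TGFß1 array 12, where *Il18* and *Il1rap* were no longer called, and 5 without control array 1. No result changed direction while it was called. The labels share no replicate number, so the paired analysis used the runs of 5 label numbers as the replicate block, whose meaning the labels do not give: with slide effects removed, arrays of the same run deviated together (r = 0.11 to 0.67 for all 30 pairs, and over 0.1 for 2 of 60 pairs of different runs). With runs and slide in the model 6 member differences that had missed the threshold were called: *Il1rl1* with TGFß1 (1.14), between IL-1β and TNFα (-1.30) and between TNFα and TGFß1 (0.93), *Irak3* between IL-1β and TNFα (0.66), *Il1rap* between TNFα and TGFß1 (0.89) and *Il18* between IL-6 plus sIL-6Rα and TGFß1 (0.66). There the pathway genes called with IL-1β went from 3 to 6 and those with IL-6 plus sIL-6Rα from 1 to 2. The same model moved the probes called over the whole array from 2948 to 4522 with TNFα, from 68 to 323 with IL-1β and from 17 to 231 with IL-6 plus sIL-6Rα, and with only the groups compared the last 2 counts were 20 and 0. Normexp moved the TGFß1 count from 5250 to 3472. The scanner header's percentile and the single-slide fits were chosen after seeing the data. *Il1rap* missed the threshold with TGFß1 as the mean of its tested probes (-0.87, q = 0.0697), and *Il18* under normexp (-0.54), with no filter (q = 0.0907) and with only the groups compared (q = 0.0855); the cause was not tested. With 1 array of a group on a slide, that array is assumed to vary like the others.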
